A study of Mus musculus with 12 samples.

Results

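The transforming growth factor beta (TGF-beta) and bone morphogenetic protein (BMP) families were followed through 4 cell populations sorted from the aorta of newborn mice and the fat around it. The genes described are 54 ligands, receptors, secreted modulators, latent TGF-beta binding proteins, Smads and Id genes, chosen by symbol from the 36512 genes of the count table, and all 54 were found there. Of these, 53 had enough counts to be tested, among 21285 genes tested in all. The exception was Gdf5. The populations were smooth muscle cells, preadipocytes, intermediate cells and progenitor cells, as the labels call them, with 3 libraries each. All came from wild type CD-1 pups of mixed sex at postnatal day 3, and the labels name no treatment. They do not give the sorting gates or say how many pups went into a library. The RNA was polyadenylated RNA amplified from small amounts with SMART-Seq v4.

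TGF-beta family ligands are secreted dimers that bring a type II and a type I receptor kinase together on the receiving cell. TGF-betas and activins act mainly through Tgfbr2 or the activin type II receptors and through Smad2 and Smad3, whereas BMPs act mainly through Bmpr2 or the activin type II receptors, a BMP type I receptor, and Smad1, Smad5 and Smad9. Both arms share Smad4, TGF-betas are stored in the matrix in a latent form by binding proteins, and BMPs and activins are held in check by secreted binding proteins such as Noggin, Chordin and Follistatin. In adipose tissue, BMP4 and BMP7 are known to promote commitment to the white and the brown fat lineage, while TGF-beta is known to restrain the differentiation of fat cells and to promote the contractile phenotype of smooth muscle.

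Libraries held 11701825 to 17123109 counts. Levels are CPM, counts relative to the library total after TMM scaling, and levels of different genes were compared only as CPM per kilobase of exon. The summed level of 8 smooth muscle markers was 7271 to 7880 CPM in smooth muscle libraries, 933 to 1271 CPM in intermediate libraries and at most 232 CPM in the others. Of the 8, 7 were higher in intermediate than in progenitor libraries (14.1% of all genes tested, median 3.17 log2), so that smooth muscle genes moved with the intermediate label too. That of 8 adipocyte lineage markers was 5141 to 8446 CPM in preadipocyte libraries and 1881 to 1934 CPM in progenitor libraries. It was 320 to 374 CPM in intermediate and 115 to 130 CPM in smooth muscle libraries. Adventitial progenitor markers summed to 18340 to 20810 CPM in progenitor libraries and 6994 to 7692 CPM in intermediate libraries, which have no marker list of their own. The sums of those markers were 2285 to 2914 CPM in preadipocyte and 1691 to 2398 CPM in smooth muscle libraries. Genes of other cells moved with several of the labels. Mesothelial markers, 8 of 8 detected, summed to 1206 to 1635 CPM in smooth muscle libraries, against at most 207 CPM elsewhere, and none of them was at 0. Schwann and neuronal markers, 10 of 10 detected, summed to 813 to 1059 CPM in smooth muscle libraries, against 110 to 132 in preadipocyte, 30.7 to 43.7 in intermediate and 25.5 to 31.7 in progenitor libraries, and none was at 0. Of these 10, 9 were also higher in preadipocytes than in progenitors (25.1% of all genes tested, median 3.37 log2) and 7 in intermediate cells (14.1%, median 2.39 log2). Of 10 endothelial markers, 8 were higher in smooth muscle, 7 in preadipocytes and 7 in intermediate cells than in progenitors (30.5%, 25.1% and 14.1% of all genes tested). The medians were 2.16, 1.99 and 2.14 log2, and 4 of these markers were under 1 CPM in progenitors and none elsewhere. An even background over 1223 olfactory and vomeronasal receptor genes was 0.143 to 0.202 CPM per kilobase in smooth muscle libraries, against at most 0.0867 elsewhere. Red blood cell genes, 7 of 8 in the table, summed to 774 to 10830 CPM in preadipocyte libraries, against at most 210.4 CPM elsewhere. Preadipocyte libraries differed most among themselves, with a chi-square of 34.4 to 70.9 per degree of freedom between pairs, the pairs with replicate 3 the highest, against 3.92 to 11.3 in the other populations. Without preadipocyte replicate 3, 26 members were lowest in preadipocytes by the rule given below, against 27 with it. The part of these genes in the results below was not tested. Member counts after subtraction of the even background and without each library are given with the processing alternatives. The labels do not say whether replicates came from different litters or sorts, and p-values therefore describe the spread among these libraries, part of which may be technical. In sorted bulk RNA, fewer cells of a type and less RNA per cell cannot be told apart.

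Most of the pathway differed among the populations, and preadipocyte libraries held the least RNA of most of it. At an adjusted p under 0.05 in the F test of edgeR's quasi-likelihood model, 50 of 53 members differed, against 79.8% of all genes tested. A member was counted as lowest in a population where all 3 comparisons with the others were called and lower, a rule added after the values were seen. By that rule 27 of 53 members were lowest in preadipocyte libraries (15.0% of all genes tested), 2 in smooth muscle (3.64%) and 4 in progenitor libraries (3.29%). Of these positions, 20 of the 27, 1 of the 2 and 1 of the 4 held under every alternative run. Smad3 kept its lowest position in preadipocytes under 5 of 20 alternatives and Eng under 14 of 20. The edgeR model called 0 members lowest in intermediate libraries (1.45% of all genes tested), against 1 at an unadjusted p under 0.05 and 1 with DESeq2. The mirror rule for the highest population found 10 members in smooth muscle (10.9% of all genes tested), 1 in preadipocyte (17.0%), 4 in intermediate (2.15%) and 6 in progenitor libraries (4.16%). All 6 in progenitors, 3 of the 4 in intermediate, 5 of the 10 in smooth muscle and 0 of 1 in preadipocyte libraries held under every alternative run. Without intermediate replicate 1, 2 or 3 or progenitor replicate 2 there were 6 in smooth muscle, there were 8 in intermediate libraries without preadipocyte replicate 3 and 7 without intermediate replicate 3, and leaving out each library in turn gave 0 to 3 in preadipocyte libraries (0 without smooth muscle replicate 2 or preadipocyte replicate 2, and 2 or 3 without the others except smooth muscle replicate 1 and preadipocyte replicate 1). Preadipocytes were thus the lowest population for 50.9% of members and the highest for 1.89%.

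**Figure D1:**
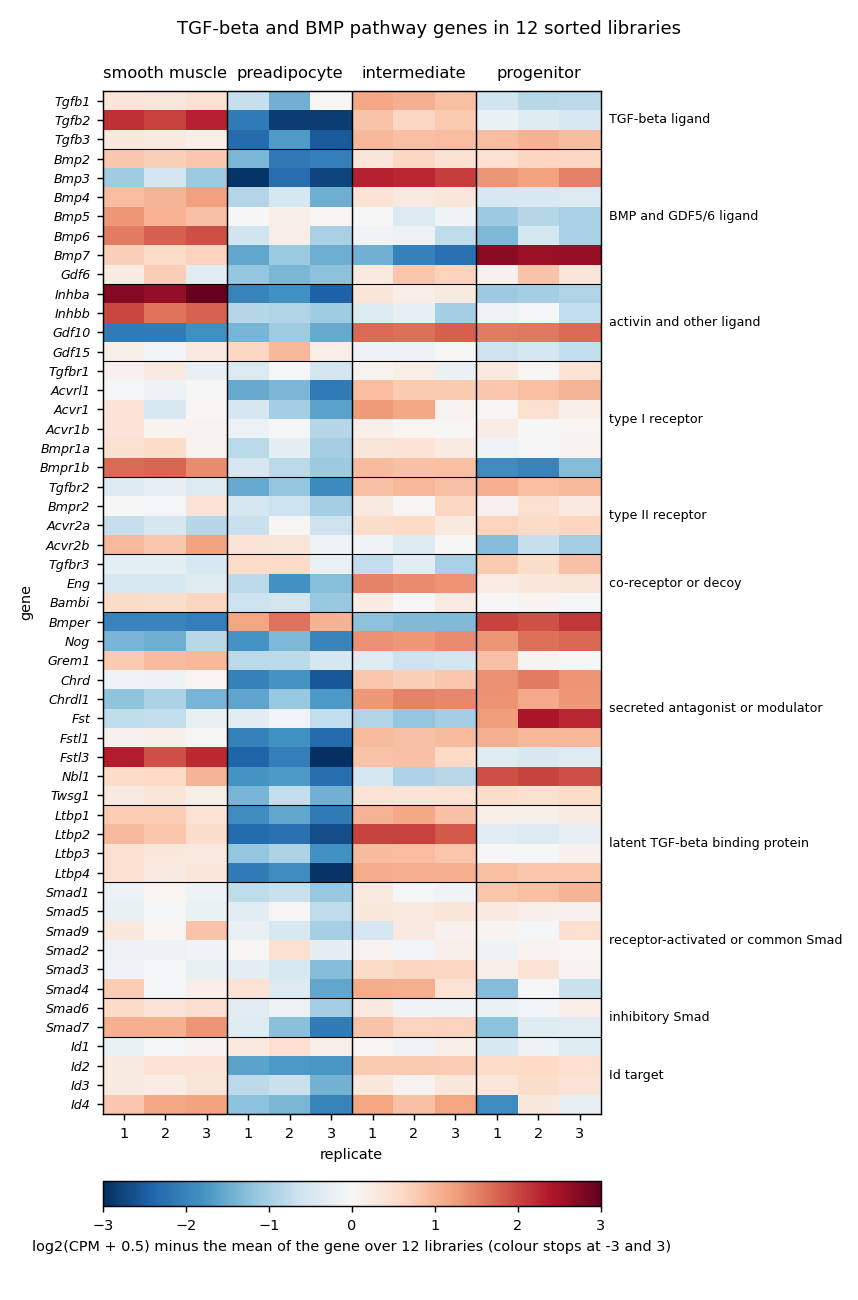
Level of each of the 53 tested members in every library, as the log2 CPM with a pseudocount of 0.5 minus the member's mean over the 12 libraries, with colours capped at 3; rows are grouped by role and columns by population. The preadipocyte columns are the lowest for most rows, with 27 of 53 tested members lowest there.

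Set against progenitors, 5 of 53 members were higher in preadipocytes (25.1% of all genes tested were called higher) and 38 were lower (25.9%). The median log2 fold change over the 53 members was -1.35, against 0.04 over all genes. Set against intermediate cells, preadipocytes had 4 members higher (26.0%) and 37 lower (31.1%), with a median of -1.32 over members and -0.24 over all genes. Smooth muscle had 41 members higher than preadipocytes (40.7%) and 5 lower (25.9%), with a median of 1.34 over members and 0.35 over all genes. These 3 comparisons share the preadipocyte libraries. Without composition scaling, where the median of all genes shifted by 0.39 log2 against progenitors and 0.43 against intermediate cells, preadipocytes had 7 members higher and 32 lower than progenitors, and 9 higher and 35 lower than intermediate cells. The share of calls that were higher over all genes then was 67.6% and 64.7%, against 49.2% and 45.6% with TMM.

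The other 3 comparisons were more even. Smooth muscle had 17 members higher than progenitors (30.5% of all genes tested) and 18 lower (23.6%), and 13 higher than intermediate cells (15.7%) and 19 lower (13.1%). Intermediate cells had 17 members higher than progenitors (14.1%) and 8 lower (13.4%). Without composition scaling, where the median of all genes shifted by 0.44 log2 against progenitors and 0.49 against intermediate cells, the smooth muscle splits became 25 higher and 15 lower than progenitors, and 26 higher and 10 lower than intermediate cells. The higher share over all genes then was 82.8% and 89.2%, against 56.4% and 54.6% with TMM. Of the 222 member comparisons called, 174 were called under every alternative run and 48 were lost under at least 1. Calls named below are of the first kind unless a limit is given.

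Each TGF-beta ligand followed its own order. Tgfb2, the isoform that needs a co-receptor for tight binding to Tgfbr2, was highest in smooth muscle, with 145, 132 and 158 CPM in smooth muscle, 6.96, 4.05 and 3.96 in preadipocyte, 57.7, 48.9 and 54.4 in intermediate and 27.6, 24.4 and 22.6 in progenitor libraries. The 4 populations did not overlap, and each step in that order was called. Its log2 fold change was 2.54 ± 0.18 (adjusted p = 2.16e-08) for smooth muscle against progenitor and 4.85 ± 0.21 (adjusted p = 1.16e-10) for smooth muscle against preadipocyte. Tgfb3 showed another order, with 212, 204 and 191 CPM in smooth muscle, 33.5, 52 and 29.1 in preadipocyte, 340.2, 318 and 324 in intermediate and 324, 346 and 322 in progenitor libraries. Progenitor and intermediate libraries overlapped and preadipocyte libraries lay far below, with a log2 fold change of -3.11 ± 0.18 (adjusted p = 1.78e-09) for preadipocyte against progenitor. Smooth muscle was between them, at 2.41 ± 0.18 log2 (adjusted p = 1.42e-08) against preadipocyte. Its smaller difference from progenitor, -0.71 ± 0.17 log2, was lost with library size alone (adjusted p = 0.124), and so was that from intermediate cells, -0.69 ± 0.17 log2 (adjusted p = 0.23). Exons of Tgfb3 overlap predicted genes on the opposite strand over 12.4% of their length, and the detected one, Gm37804, had 7 counts at most in any library. Tgfb1, the isoform best known from immune cells and wound repair, averaged 18.6 ± 0.795 CPM in smooth muscle, 9.30 ± 4.87 in preadipocyte, 29.7 ± 2.80 in intermediate and 8.26 ± 0.78 in progenitor libraries (SD, n = 3 each). Its highest and second level, in intermediate and smooth muscle cells, were not called different (adjusted p = 0.0642), but intermediate cells exceeded progenitors by 1.85 ± 0.27 log2 (adjusted p = 0.000167). The 10 macrophage and leukocyte markers summed to 64.1 to 82.8 CPM in intermediate and 42.1 to 63.2 in smooth muscle libraries. The sums were 28.1 to 40.8 in preadipocyte and 42.2 to 54.1 in progenitor libraries. Of the 10, 2 were higher and 0 lower in intermediate than in progenitor libraries (14.1% and 13.4% of all genes tested, median 0.135 log2). Their part in the Tgfb1 levels was not tested.

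The promoters of Tgfb2, of the activin subunit gene Inhba and of the activin-binding protein gene Fstl3 are printed because these genes were the members with the largest excess in smooth muscle over preadipocytes. Each line gives 250 bases before and 50 bases after the annotated start, from RefSeq on GRCm38.p6, and the set was chosen after the levels were seen. Capitals mark the motif GGCGCC, which is known to bind BMP-activated Smads, the motif CAGAC, which holds the Smad box, and the motif TATAAA, each searched on both strands, so that the complement is in capitals too.
Tgfb2 (chr1:186705940-186706239, minus strand): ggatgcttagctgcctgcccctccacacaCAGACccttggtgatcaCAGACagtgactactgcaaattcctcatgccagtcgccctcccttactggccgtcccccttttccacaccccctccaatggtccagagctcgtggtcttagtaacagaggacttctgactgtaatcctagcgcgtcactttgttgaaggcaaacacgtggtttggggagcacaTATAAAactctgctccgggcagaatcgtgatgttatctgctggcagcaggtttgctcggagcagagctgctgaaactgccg
Inhba (chr13:16011601-16011900, plus strand): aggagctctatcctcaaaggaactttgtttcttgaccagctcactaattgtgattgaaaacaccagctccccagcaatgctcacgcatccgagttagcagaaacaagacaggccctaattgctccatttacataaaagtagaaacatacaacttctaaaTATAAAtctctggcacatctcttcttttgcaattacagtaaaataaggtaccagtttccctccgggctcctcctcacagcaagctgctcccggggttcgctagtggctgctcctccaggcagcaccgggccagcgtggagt
Fstl3 (chr10:79777024-79777323, plus strand): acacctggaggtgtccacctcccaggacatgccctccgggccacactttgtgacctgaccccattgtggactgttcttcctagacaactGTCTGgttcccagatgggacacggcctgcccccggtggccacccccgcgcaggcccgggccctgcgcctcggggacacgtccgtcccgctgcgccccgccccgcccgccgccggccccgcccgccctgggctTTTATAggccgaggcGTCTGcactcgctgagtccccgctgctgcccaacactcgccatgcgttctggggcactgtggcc
All 3 hold TATAAA on either strand, with the first printed base 31 bases before the start in Tgfb2, 91 in Inhba and 29 in Fstl3. In Fstl3 the match is TTTATA, so that TATAAA is reversed there, on the strand opposite to the gene. On either strand, 4 of the 38 members with a promoter entry hold it (10.5%) and so do 14.2% of the 27025 promoters in all. On mm10 the Tgfb2 gene lies on chromosome 1 from 186622792 to 186705989, Inhba on chromosome 13 from 16011851 to 16031621 and Fstl3 on chromosome 10 from 79777272 to 79782630. A match of letters is a description of the window and not evidence of binding.

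The BMP ligands had their peaks in different populations. Bmp6 was highest in smooth muscle, with 14.1, 17.1 and 18.8 CPM in smooth muscle, 2.81, 5.32 and 2.06 in preadipocyte, 4.19, 3.98 and 2.45 in intermediate and 1.47, 3.01 and 2.08 in progenitor libraries, and no smooth muscle library overlapped with another population. Its log2 fold change was 2.92 ± 0.34 (adjusted p = 5.01e-06) against progenitor and 2.23 ± 0.33 (adjusted p = 8.46e-05) against intermediate cells, while the other populations were not called different from each other. Bmp4 had 19.9, 21.4 and 24.8 CPM in smooth muscle, 5.34, 6.95 and 3.40 in preadipocyte, 13.8, 12.5 and 13 in intermediate and 7.22, 7.25 and 7.44 in progenitor libraries. Smooth muscle exceeded progenitors by 1.59 ± 0.21 log2 (adjusted p = 1.92e-05) and preadipocytes by 2.08 ± 0.22 log2 (adjusted p = 6.71e-07). The smaller excess over intermediate cells, 0.75 ± 0.21 log2, was lost with no low-count filter and without smooth muscle replicate 3, any intermediate replicate or progenitor replicate 2 (adjusted p up to 0.15). Bmp2 had 19.2, 17.8 and 19.1 CPM in smooth muscle, 3.83, 2.05 and 2.23 in preadipocyte, 14, 16.8 and 14.9 in intermediate and 15.3, 17.2 and 16.8 in progenitor libraries. Intermediate and progenitor libraries overlapped, smooth muscle lay just above them with no call against progenitor (adjusted p = 0.433), and preadipocytes lay below all, at -2.59 ± 0.22 log2 (adjusted p = 7.55e-08) against progenitor.

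Bmp7 was highest in progenitors, with 6.89, 6.04 and 6.71 CPM in smooth muscle, 1.03, 1.57 and 1.11 in preadipocyte, 1.16, 0.601 and 0.454 in intermediate and 28.6, 26.2 and 27.1 in progenitor libraries. Progenitors stood above every other library, and the log2 fold change was -5.20 ± 0.28 (adjusted p = 7.73e-09) for intermediate against progenitor and -4.46 ± 0.25 (adjusted p = 1.38e-09) for preadipocyte against progenitor. The intermediate mean per kilobase was 2.85 times the even background of those libraries, so that level is close to the floor. Bmp3, which is known to counteract other BMPs in bone, peaked in intermediate cells instead, with 17.6, 24.9 and 17.5 CPM in smooth muscle, 4.48, 7.31 and 5.18 in preadipocyte, 186, 182 and 159.6 in intermediate and 94.8, 87.5 and 108 in progenitor libraries. The populations were fully separated, with 0.86 ± 0.17 log2 (adjusted p = 0.00208) for intermediate against progenitor and -4.96 ± 0.21 log2 (adjusted p = 6.71e-11) for preadipocyte against intermediate. Low members completed the family. Bmp5 averaged 3.52 CPM in smooth muscle, 1.49 in preadipocyte, 1.20 in intermediate and 0.468 in progenitor libraries. Gdf6 averaged 2.18 CPM in smooth muscle, 0.431 in preadipocyte, 2.90 in intermediate and 2.59 in progenitor libraries. Bmp5 exons overlap a predicted gene on the opposite strand over 46.7% of their length, though that gene had 4 counts at most in any library. Gdf6 was lower in preadipocytes than in progenitors, at -2.56 ± 0.40 log2 (adjusted p = 6.12e-05), and its smooth muscle mean was 3.65 times the even background. Gdf5, the member left out by the low-count filter, had at most 20 counts, in a preadipocyte library, and is not compared.

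Activin subunits were highest in smooth muscle. Inhba, the subunit of activin A, had 67.9, 63.1 and 84.6 CPM in smooth muscle, 2.05, 2.42 and 1.39 in preadipocyte, 12.6, 11.2 and 11.8 in intermediate and 4.27, 4.51 and 4.96 in progenitor libraries. Smooth muscle stood above every other library and every step down to preadipocytes was called, with 3.97 ± 0.19 log2 (adjusted p = 3.11e-10) for smooth muscle against progenitor and 5.20 ± 0.21 log2 (adjusted p = 7.98e-11) against preadipocyte. Inhbb, the subunit of activin B, was low but also peaked there, averaging 4.36 ± 0.611 CPM in smooth muscle, 0.226 ± 0.0531 in preadipocyte, 0.464 ± 0.255 in intermediate and 0.644 ± 0.269 in progenitor libraries (SD, n = 3 each). Smooth muscle exceeded progenitors by 2.75 ± 0.40 log2 (adjusted p = 4.14e-05). The smooth muscle libraries with the highest Tgfb2, Bmp6, Inhba and Inhbb are also those with the high mesothelial and Schwann or neuronal sums given above, whose part in these levels was not tested. Gdf10, a relative of Bmp3, was the most abundant ligand per kilobase in intermediate cells and progenitors, with 57.6, 58.7 and 70.2 CPM in smooth muscle, 95.9, 120.2 and 87.6 in preadipocyte, 818, 789 and 867 in intermediate and 745, 752 and 814 in progenitor libraries. Intermediate and progenitor libraries overlapped, and both other populations lay below them, at -3.73 ± 0.15 log2 (adjusted p = 2.79e-10) for smooth muscle against intermediate and -2.93 ± 0.14 log2 (adjusted p = 3.47e-10) for preadipocyte against progenitor. Smooth muscle was the lowest of the 4, at -0.70 ± 0.14 log2 (adjusted p = 0.00034) against preadipocyte. Gdf15, a stress-induced hormone that acts on the hindbrain, was the one member highest in preadipocytes, averaging 46.7 ± 6.04 CPM in smooth muscle, 66.6 ± 18.2 in preadipocyte, 39.6 ± 3.14 in intermediate and 27.3 ± 1.95 in progenitor libraries (SD, n = 3 each). Its excess over progenitors was 1.28 ± 0.18 log2 (adjusted p = 1.85e-05), but that over smooth muscle was lost after background subtraction and without smooth muscle replicate 2 or preadipocyte replicate 2 (adjusted p up to 0.0832).

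**Figure D2:**
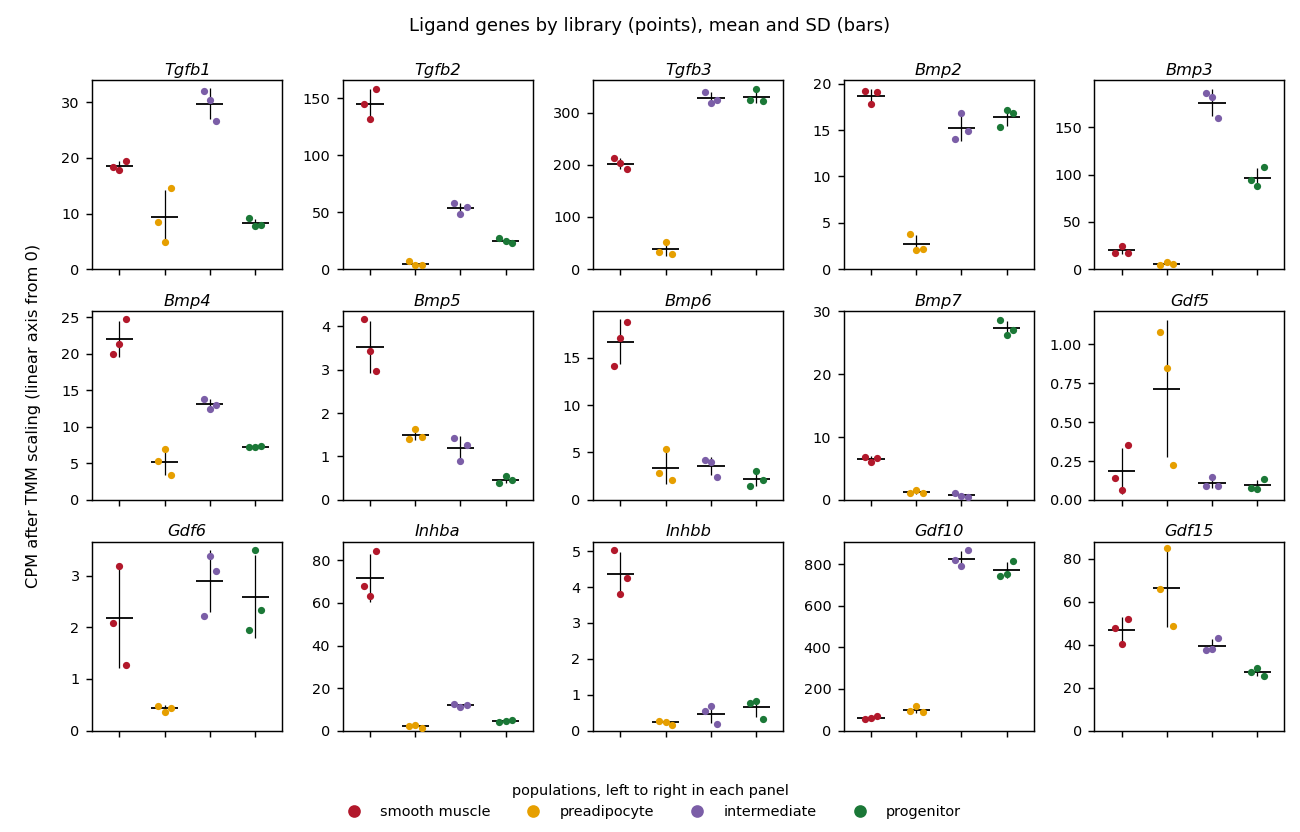
CPM of the 15 ligand genes on linear axes from 0, with a point for each library and bars for the mean and the SD, in smooth muscle, preadipocyte, intermediate and progenitor libraries. Tgfb2, Bmp6 and Inhba sit highest in smooth muscle, Bmp7 in progenitor and Bmp3 in intermediate libraries, and preadipocyte libraries are low for most.

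Per kilobase of exon, the leading ligand RNAs differed by population. In smooth muscle they were Tgfb3 at 59.8 CPM per kilobase, Gdf15 at 25.2, Tgfb2 at 25, Gdf10 at 11.9 and Inhba at 11.3. In preadipocytes Gdf15 led at 35.9, followed by Gdf10 at 19.4 and Tgfb3 at 11.3. In intermediate cells Gdf10 at 158 and Tgfb3 at 96.7 exceeded Bmp3 at 23.8 and Gdf15 at 21.4, and in progenitors Gdf10 at 148 and Tgfb3 at 97.8 exceeded Gdf15 at 14.8, Bmp3 at 13.1 and Bmp7 at 6.79. Tgfb3 was thus more abundant per length than Tgfb2 in every population. SMART-Seq coverage along transcripts was not measured here, so these orders rest on annotated exon length.

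Receptor RNA was present in all 4 populations and was lowest in preadipocytes for most genes. Tgfbr2, the type II receptor of TGF-betas, had 122, 138 and 120.3 CPM in smooth muscle, 56.6, 72.8 and 42.9 in preadipocyte, 299, 323 and 299.5 in intermediate and 342, 303 and 319.8 in progenitor libraries. Intermediate and progenitor libraries overlapped above smooth muscle, and smooth muscle lay above preadipocytes, at -1.34 ± 0.16 log2 (adjusted p = 4.83e-06) for smooth muscle against progenitor and -2.48 ± 0.16 log2 (adjusted p = 6.92e-09) for preadipocyte against progenitor. Its partner Tgfbr1 averaged 96.8 ± 16.3 CPM in smooth muscle, 73.3 ± 14.4 in preadipocyte, 94.9 ± 12.7 in intermediate and 109.6 ± 14.5 in progenitor libraries (SD, n = 3 each), a much narrower range. The lower level in preadipocytes than in progenitors, -0.58 ± 0.17 log2, was lost with library size alone and without progenitor replicate 3 (adjusted p up to 0.3). Preadipocytes were not called different from intermediate cells (adjusted p = 0.073). Acvrl1, a type I receptor for BMP9 and BMP10 that is best known from endothelium, had 42, 39.6 and 43.2 CPM in smooth muscle, 15, 16.7 and 9.75 in preadipocyte, 83.7, 75.2 and 76.4 in intermediate and 77.5, 81.7 and 88.6 in progenitor libraries. Preadipocytes fell by 2.58 ± 0.17 on the log2 scale against progenitors (adjusted p = 6.81e-09). The 10 endothelial markers summed to 178 to 216 CPM in smooth muscle, 67.8 to 139 in preadipocyte, 79.4 to 134 in intermediate and 138 to 156 in progenitor libraries. Yet 7 of these 10 markers were higher and 1 lower in preadipocytes than in progenitors (25.1% and 25.9% of all genes tested, median 1.99 log2). Their part in this result was not tested.

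Among BMP type I receptors, Bmpr1b departed from the rest. It had 19.4, 20.2 and 15.8 CPM in smooth muscle, 3.83, 3.02 and 2.40 in preadipocyte, 11.3, 10.8 and 11.1 in intermediate and 1.16, 1.03 and 2.01 in progenitor libraries. Progenitors were the lowest of the 4, with 3.71 ± 0.26 log2 (adjusted p = 1.81e-08) for smooth muscle and 2.97 ± 0.26 log2 (adjusted p = 9.25e-07) for intermediate cells against progenitor. The excess of smooth muscle over intermediate cells, 0.74 ± 0.22 log2, was lost with no low-count filter and without smooth muscle replicate 1 or 2, any intermediate replicate or progenitor replicate 2 (adjusted p up to 0.18). Bmpr1a, the widely expressed BMP type I receptor, averaged 207 CPM in smooth muscle, 99.7 in preadipocyte, 201 in intermediate and 158 in progenitor libraries. It was lower in preadipocytes than in intermediate cells, at -1.01 ± 0.17 log2 (adjusted p = 0.000115), and higher in smooth muscle than in preadipocytes, at 1.05 ± 0.17 log2 (adjusted p = 7.45e-05), whereas the lower level in preadipocytes than in progenitors was lost with library size alone (adjusted p = 0.125). Acvr1 averaged 24.9 ± 7.25 CPM in smooth muscle, 12.1 ± 4.71 in preadipocyte, 47.1 ± 18 in intermediate and 29.3 ± 4.68 in progenitor libraries (SD, n = 3 each), where intermediate replicate 3 held 26.4 CPM and the other two 59.8 and 55. Acvr1b, the activin type I receptor, averaged 13.6 CPM in smooth muscle, 9.32 in preadipocyte, 12.6 in intermediate and 12.6 in progenitor libraries and did not pass the F test (adjusted p = 0.0954). Its 6 log2 fold changes had 95% intervals within -0.84 to 0.95, and its single pairwise call, of smooth muscle over preadipocytes, was lost under 10 of 20 alternatives.

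The type II receptors shared with activins went opposite ways. Acvr2b had 12.8, 11.3 and 15.1 CPM in smooth muscle, 8.37, 8.22 and 5.74 in preadipocyte, 5.70, 4.59 and 6.36 in intermediate and 2.25, 3.69 and 2.81 in progenitor libraries, with 2.15 ± 0.24 log2 (adjusted p = 2.99e-06) for smooth muscle and 1.34 ± 0.24 log2 (adjusted p = 0.000216) for preadipocyte against progenitor. Its excess in smooth muscle over preadipocytes, 0.81 ± 0.22 log2, was lost with no low-count filter and without any intermediate replicate or progenitor replicate 2 (adjusted p up to 0.205). Acvr2a averaged 32.6 CPM in smooth muscle, 40.2 in preadipocyte, 73 in intermediate and 81.4 in progenitor libraries, at -1.32 ± 0.18 log2 (adjusted p = 1.94e-05) for smooth muscle and -1.02 ± 0.17 log2 (adjusted p = 0.000141) for preadipocyte against progenitor. Smooth muscle thus had the highest mean of Acvr2b and the lowest mean of Acvr2a. Bmpr2, the BMP type II receptor, averaged 42.1 CPM in smooth muscle, 23.3 in preadipocyte, 48.2 in intermediate and 47.8 in progenitor libraries, and was lower in preadipocytes than in progenitors, at -1.04 ± 0.19 log2 (adjusted p = 0.000221).

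Co-receptors and the decoy receptor differed in the population with the highest mean. Eng, or endoglin, an auxiliary receptor abundant in endothelium, had 28, 28.6 and 30.8 CPM in smooth muscle, 22.7, 10.9 and 16.1 in preadipocyte, 111, 107 and 101 in intermediate and 46.5, 49.7 and 51.2 in progenitor libraries. Intermediate cells stood above every other library, at 1.11 ± 0.19 log2 (adjusted p = 0.000536) against progenitor. Of the 10 endothelial markers, 7 were higher and 1 lower in intermediate than in progenitor libraries (14.1% and 13.4% of all genes tested, median 2.14 log2). The part of these markers in this result was not tested. Preadipocytes were below intermediate cells, at -2.68 ± 0.20 log2 (adjusted p = 1.58e-08). Tgfbr3, or betaglycan, which presents TGF-beta2 to Tgfbr2, averaged 84 ± 5.72 CPM in smooth muscle, 136 ± 37.5 in preadipocyte, 67.3 ± 15.5 in intermediate and 179 ± 23.3 in progenitor libraries (SD, n = 3 each). Progenitors exceeded intermediate cells, at -1.41 ± 0.20 log2 (adjusted p = 0.000124) for intermediate against progenitor. Preadipocytes were not called different from progenitors (adjusted p = 0.107) but were above intermediate cells by 1.01 ± 0.20 log2 (adjusted p = 0.000463). Bambi, a decoy receptor without a kinase domain, averaged 134 CPM in smooth muscle, 53 in preadipocyte, 100.1 in intermediate and 89.7 in progenitor libraries and was lower in preadipocytes than in smooth muscle, at 1.34 ± 0.15 log2 (adjusted p = 1.17e-06) for smooth muscle against preadipocyte.

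**Figure D3:**
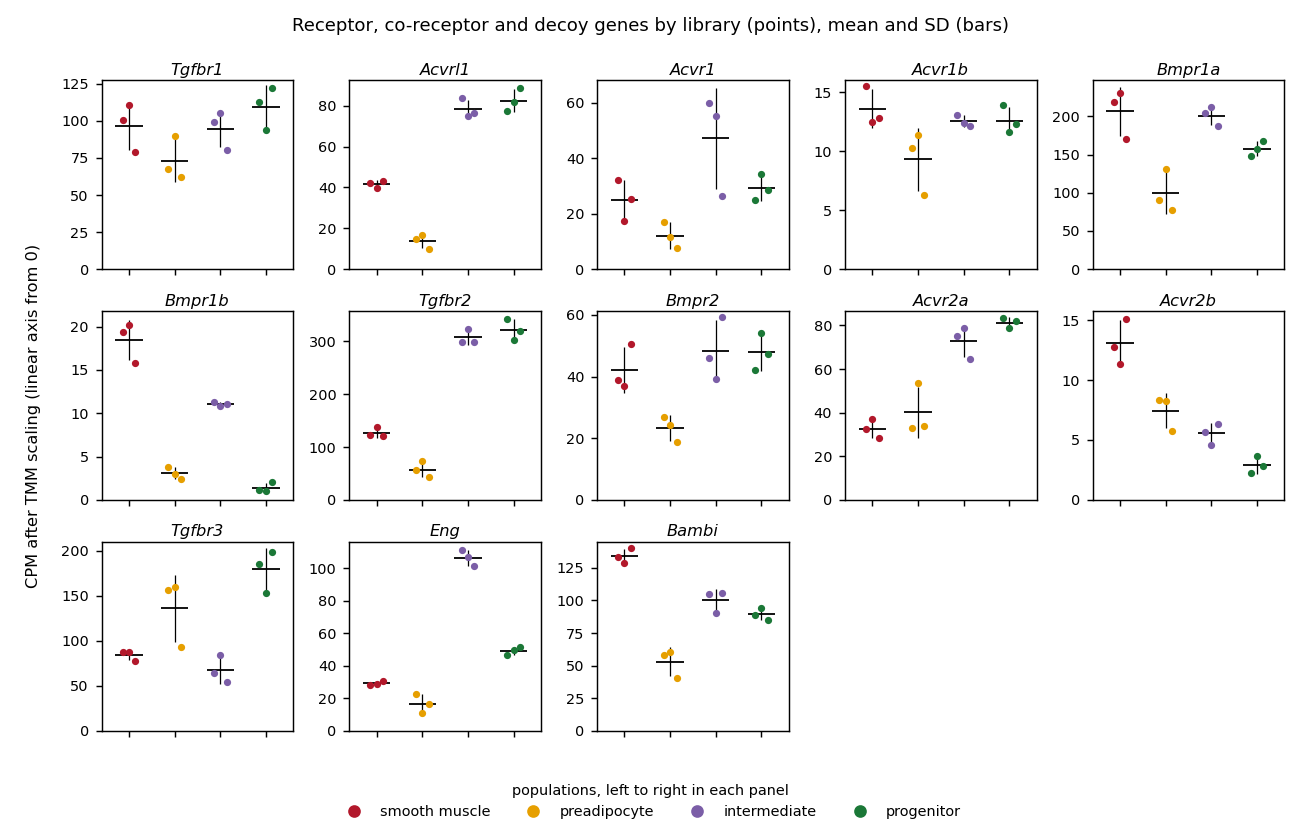
CPM of the 13 receptor, co-receptor and decoy genes on linear axes from 0, with a point for each library and bars for the mean and the SD, in smooth muscle, preadipocyte, intermediate and progenitor libraries. Tgfbr2, Acvrl1 and Eng are lowest in preadipocyte libraries by mean, whereas Bmpr1b and Acvr2b are lowest in progenitor libraries.

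Per kilobase of exon, Bmpr1a, Bambi and Tgfbr2 led the receptors of smooth muscle at 32.6, 26.4 and 15.5 CPM per kilobase. Tgfbr3 at 20.8 and Bmpr1a at 15.7 led in preadipocytes, the only population of the 4 where Tgfbr3 ranked first. Tgfbr2 led in intermediate cells at 37.5, followed by Bmpr1a at 31.7 and Eng at 26.3, and in progenitors at 39.3, followed by Tgfbr3 at 27.4 and Bmpr1a at 24.9.

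Several secreted modulators set progenitors apart. Bmper, a BMP-binding protein related to Drosophila crossveinless, had 17.5, 17.7 and 17 CPM in smooth muscle, 163, 224 and 149.7 in preadipocyte, 30.3, 28.5 and 28.3 in intermediate and 294, 270.5 and 319 in progenitor libraries. Progenitor and preadipocyte libraries were high and intermediate and smooth muscle libraries low, with no overlap between both sides, at -3.34 ± 0.16 log2 (adjusted p = 1.82e-09) for intermediate and -4.08 ± 0.16 log2 (adjusted p = 5.71e-11) for smooth muscle against progenitor. Preadipocytes exceeded intermediate cells by 2.63 ± 0.15 log2 (adjusted p = 1.18e-09). Fst, or Follistatin, which neutralises activins, had 27.5, 28.1 and 40.2 CPM in smooth muscle, 37.4, 44.1 and 28.1 in preadipocyte, 25, 20.8 and 22.9 in intermediate and 112, 259 and 228 in progenitor libraries. Progenitor replicate 1 held less than the other two progenitor libraries, yet stood above every library of the other populations, and the log2 fold changes were -3.12 ± 0.27 (adjusted p = 8.79e-07) for intermediate and -2.45 ± 0.26 (adjusted p = 1.23e-06) for preadipocyte against progenitor. Nbl1, a BMP antagonist of the DAN family, had 104, 107 and 143 CPM in smooth muscle, 19.9, 21 and 14.2 in preadipocyte, 48.8, 37.1 and 39.3 in intermediate and 273, 291 and 269 in progenitor libraries. Its 4 populations did not overlap, with -3.92 ± 0.19 log2 (adjusted p = 2.5e-10) for preadipocyte and -2.73 ± 0.18 log2 (adjusted p = 4.21e-08) for intermediate against progenitor.

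Chrd, or Chordin, which sequesters BMPs, had 14.8, 14.4 and 16.7 CPM in smooth muscle, 3.56, 4.23 and 2.34 in preadipocyte, 28.5, 26.7 and 28.4 in intermediate and 41.9, 47.4 and 40.9 in progenitor libraries. Progenitors were highest, at -3.68 ± 0.19 log2 (adjusted p = 6.12e-10) for preadipocyte and -0.64 ± 0.17 log2 (adjusted p = 0.0112) for intermediate against progenitor. Nog and Chrdl1, BMP antagonists as well, were shared by intermediate cells and progenitors. Nog, or Noggin, had 1.08, 1.02 and 1.84 CPM in smooth muscle, 0.702, 1.15 and 0.557 in preadipocyte, 10.2, 9.77 and 10.7 in intermediate and 10.01, 12.5 and 13.3 in progenitor libraries. Chrdl1, a relative of Chordin, had 20.5, 24.5 and 17.9 CPM in smooth muscle, 15.5, 21.4 and 14.1 in preadipocyte, 118, 135 and 129.8 in intermediate and 122, 105 and 118 in progenitor libraries. For both genes the intermediate and progenitor libraries overlapped and the other two populations lay far below, at -3.89 ± 0.29 log2 (adjusted p = 2.42e-08) for Nog and -2.76 ± 0.17 log2 (adjusted p = 3.41e-09) for Chrdl1 in preadipocyte against progenitor. Smooth muscle was lower than progenitor too, at -3.18 ± 0.28 log2 (adjusted p = 1.99e-07) for Nog and -2.45 ± 0.17 log2 (adjusted p = 1.22e-08) for Chrdl1. Grem1, or Gremlin, was low, at 2.92 CPM in smooth muscle, 0.621 in preadipocyte, 0.765 in intermediate and 1.88 in progenitor libraries.

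Fstl3, which binds activins as Follistatin does, peaked in another population than Follistatin, though both were lower in preadipocytes than in progenitors. It had 47.8, 35.7 and 44.1 CPM in smooth muscle, 1.30, 1.75 and 0.557 in preadipocyte, 16.6, 17 and 13.7 in intermediate and 6.83, 6.36 and 6.77 in progenitor libraries. Smooth muscle was highest and preadipocytes lowest, at 2.68 ± 0.24 log2 (adjusted p = 2.2e-07) for smooth muscle and -2.47 ± 0.28 log2 (adjusted p = 1.85e-06) for preadipocyte against progenitor. Exons of Fstl3 overlap Prss57 on the opposite strand over 47.3% of their length, and how the counting treated strand is not given. Prss57 had 18 to 21 counts in smooth muscle, 1 to 9 in preadipocyte, 14 to 19 in intermediate and 14 to 23 in progenitor libraries. Fstl1, a secreted glycoprotein of the same family, was the most abundant modulator per kilobase in every population, with 2406, 2482 and 2281 CPM in smooth muscle, 540.3, 633 and 441 in preadipocyte, 4309.9, 4088 and 4305 in intermediate and 4604, 4391 and 4441 in progenitor libraries. Preadipocytes were lower than progenitors, at -3.06 ± 0.15 log2 (adjusted p = 2.5e-10). Twsg1, which binds BMPs together with Chordin, averaged 337 CPM in smooth muscle, 125 in preadipocyte, 374 in intermediate and 397 in progenitor libraries, at -1.67 ± 0.16 log2 (adjusted p = 3.61e-07) for preadipocyte against progenitor.

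All 4 latent TGF-beta binding proteins, matrix proteins of the fibrillin family of which Ltbp2 is known not to hold latent TGF-beta, were lowest in preadipocytes. Ltbp2 had 216, 198 and 159 CPM in smooth muscle, 21.8, 23 and 17 in preadipocyte, 452, 459.8 and 395 in intermediate and 87.6, 82.9 and 92.8 in progenitor libraries. The populations did not overlap and each step was called, with 2.31 ± 0.15 log2 (adjusted p = 4.25e-08) for intermediate and -2.09 ± 0.15 log2 (adjusted p = 1.74e-08) for preadipocyte against progenitor. Ltbp1 had 386, 388 and 311 CPM in smooth muscle, 61.4, 77.6 and 52 in preadipocyte, 460.1, 509 and 419 in intermediate and 254, 252 and 273 in progenitor libraries. Ltbp3 had 415, 365 and 354 CPM in smooth muscle, 132, 155 and 83.8 in preadipocyte, 568, 558 and 529 in intermediate and 295, 295 and 325 in progenitor libraries. Ltbp4, the most abundant of them per kilobase, had 688, 591 and 625 CPM in smooth muscle, 114, 136 and 64.3 in preadipocyte, 1067, 1044 and 1046 in intermediate and 917, 876 and 874 in progenitor libraries. Preadipocytes lay below every library of the other populations for all 4 genes. The log2 fold changes of preadipocyte against progenitor were -2.03 ± 0.15 (adjusted p = 2.97e-08) for Ltbp1, -1.30 ± 0.17 (adjusted p = 1.25e-05) for Ltbp3 and -3.08 ± 0.21 (adjusted p = 8.65e-09) for Ltbp4. The top position of intermediate cells was held by Ltbp2 in every alternative, whereas that of Ltbp3 over smooth muscle was lost with library size alone, after background subtraction and without smooth muscle replicate 2 or 3 (adjusted p up to 0.765).

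**Figure D4:**
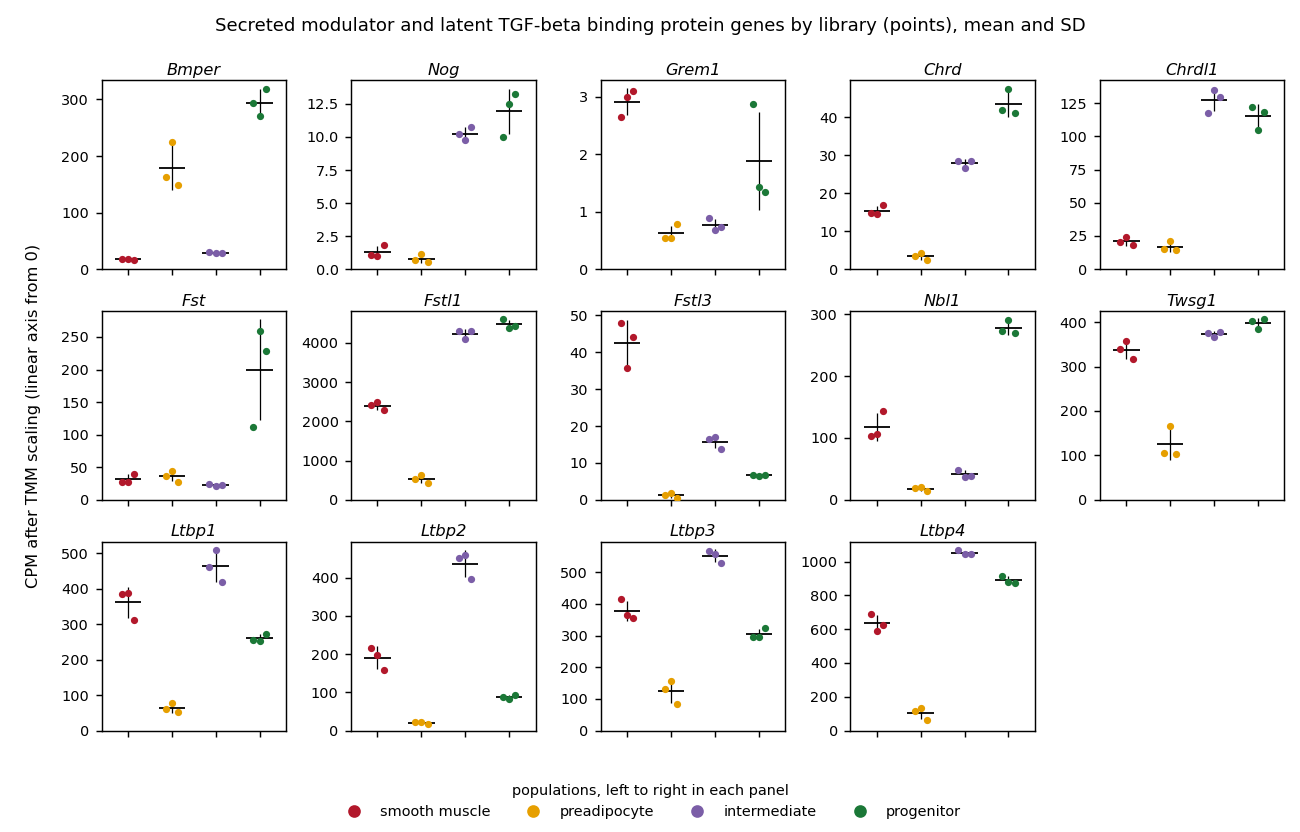
CPM of secreted modulator and latent TGF-beta binding protein genes on linear axes from 0, with a point for each library and bars for the mean and the SD, in smooth muscle, preadipocyte, intermediate and progenitor libraries. Bmper, Fst and Nbl1 are highest in progenitor libraries, Fstl3 in smooth muscle libraries and Ltbp2 in intermediate libraries.

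The Smads that carry the signal were detected in all 4 populations. Smad2, a TGF-beta and activin mediator, averaged 63.8 CPM in smooth muscle, 77 in preadipocyte, 74 in intermediate and 71.5 in progenitor libraries and was called in no comparison, with 95% intervals of the 6 log2 fold changes within -0.59 to 0.43. Its partner Smad3 averaged 35 CPM in smooth muscle, 24.9 in preadipocyte, 59.2 in intermediate and 45.2 in progenitor libraries, at -1.25 ± 0.20 log2 (adjusted p = 6.75e-05) for preadipocyte against intermediate. Smad1, a BMP mediator, averaged 58 CPM in smooth muscle, 34.1 in preadipocyte, 63.8 in intermediate and 117 in progenitor libraries and was highest in progenitors, at -1.78 ± 0.15 log2 (adjusted p = 1.09e-07) for preadipocyte and -0.87 ± 0.15 log2 (adjusted p = 6e-04) for intermediate against progenitor. Smad5 averaged 53.3 CPM in smooth muscle, 47.6 in preadipocyte, 74.2 in intermediate and 67.4 in progenitor libraries. Its lower level in preadipocytes than in intermediate cells, -0.64 ± 0.16 log2, was lost with library size alone (adjusted p = 0.197). That against progenitors, -0.50 ± 0.16 log2, was lost with it too, with DESeq2-type size factors and without preadipocyte replicate 3 or progenitor replicate 1 (adjusted p up to 0.477). Smad9 was near the floor, at 1.15 CPM in smooth muscle, 0.338 in preadipocyte, 0.717 in intermediate and 0.889 in progenitor libraries, and its F test did not pass (adjusted p = 0.0556). Smad4, shared by both arms, averaged 95.8 ± 29.1 CPM in smooth muscle, 61.1 ± 38.4 in preadipocyte, 142 ± 34.3 in intermediate and 50.4 ± 21.6 in progenitor libraries (SD, n = 3 each), a wide spread within groups. Its excess of 1.50 ± 0.40 log2 in intermediate cells over progenitors was lost without intermediate replicate 1 or 2 or progenitor replicate 1 (adjusted p up to 0.057).

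Of the inhibitory Smads, which feed back on the receptors and are themselves induced by the pathway, Smad7 had 71.7, 71.8 and 86.4 CPM in smooth muscle, 26, 14 and 7.58 in preadipocyte, 61.5, 54.5 and 55 in intermediate and 14.1, 26.3 and 27.1 in progenitor libraries. Smooth muscle and intermediate libraries lay above progenitor and preadipocyte libraries, at 1.77 ± 0.32 log2 (adjusted p = 0.000344) for smooth muscle and 1.34 ± 0.32 log2 (adjusted p = 0.00681) for intermediate against progenitor. Preadipocytes were not called different from progenitors (adjusted p = 0.208), where preadipocyte replicates ranged from 7.58 to 26 CPM. Smad6, the inhibitor of the BMP arm, averaged 29.2 CPM in smooth muscle, 15 in preadipocyte, 21 in intermediate and 20.4 in progenitor libraries, at 0.96 ± 0.21 log2 (adjusted p = 0.000864) for smooth muscle against preadipocyte.

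The Id genes, inhibitors of basic helix-loop-helix factors and direct targets of the BMP arm, did not move as 1 group. Id2 had 208, 229 and 226 CPM in smooth muscle, 56.2, 52.1 and 50.6 in preadipocyte, 298, 297 and 294 in intermediate and 253, 259 and 243 in progenitor libraries. Id4 had 52.7, 67 and 69.5 CPM in smooth muscle, 12.3, 11.1 and 7.02 in preadipocyte, 67.5, 55.4 and 68 in intermediate and 7.68, 36.9 and 24.9 in progenitor libraries. Preadipocytes were low for both, at -2.48 ± 0.11 log2 (adjusted p = 1.19e-10) for Id2 and -2.65 ± 0.38 log2 (adjusted p = 2.09e-05) for Id4 in preadipocyte against intermediate. For Id4, progenitor replicate 1 lay within the preadipocyte range and the other two progenitor libraries above it, and the difference of preadipocytes from progenitors, -1.20 ± 0.37 log2, was lost with library size alone and without progenitor replicate 2 (adjusted p up to 0.0952). Id3 averaged 523 CPM in smooth muscle, 225 in preadipocyte, 506 in intermediate and 573 in progenitor libraries, at -1.35 ± 0.16 log2 (adjusted p = 4.13e-06) for preadipocyte against progenitor. Id1 went the other way, averaging 44.6 ± 4.20 CPM in smooth muscle, 57.9 ± 6.86 in preadipocyte, 47.8 ± 5.21 in intermediate and 36.8 ± 4.07 in progenitor libraries (SD, n = 3 each). Preadipocytes exceeded progenitors by 0.65 ± 0.14 log2 (adjusted p = 0.00113).

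The promoters of Id2, Id3 and Id4 are printed because these 3 targets were lowest in preadipocytes together, and they run from 250 bases before to 50 after the annotated start in RefSeq on GRCm38.p6. Capitals mark the same 3 motifs on either strand.
Id2 (chr12:25096043-25096342, minus strand): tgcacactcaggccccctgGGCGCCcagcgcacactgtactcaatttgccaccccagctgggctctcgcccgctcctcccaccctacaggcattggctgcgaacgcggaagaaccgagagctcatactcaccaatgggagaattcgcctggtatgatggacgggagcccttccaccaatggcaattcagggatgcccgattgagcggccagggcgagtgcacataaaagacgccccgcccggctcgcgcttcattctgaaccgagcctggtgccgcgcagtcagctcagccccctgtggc
Id3 (chr4:136143572-136143871, plus strand): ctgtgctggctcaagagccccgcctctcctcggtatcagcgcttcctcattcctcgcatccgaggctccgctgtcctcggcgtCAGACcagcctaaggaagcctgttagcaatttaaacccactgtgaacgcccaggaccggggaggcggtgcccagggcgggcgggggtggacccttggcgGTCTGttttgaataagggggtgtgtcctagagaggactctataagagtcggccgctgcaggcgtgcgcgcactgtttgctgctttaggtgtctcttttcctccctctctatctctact
Id4 (chr13:48260866-48261165, plus strand): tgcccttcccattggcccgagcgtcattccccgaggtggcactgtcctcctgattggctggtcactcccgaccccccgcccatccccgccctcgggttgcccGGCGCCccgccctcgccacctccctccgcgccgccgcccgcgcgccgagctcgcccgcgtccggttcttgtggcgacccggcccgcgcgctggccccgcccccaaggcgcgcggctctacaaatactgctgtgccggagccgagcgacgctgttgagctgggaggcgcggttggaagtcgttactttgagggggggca
GGCGCC was found on either strand in 12 of 38 member promoters (31.6%) and in 12% of the 27025 promoters in all. The median GC content was 66.5% for member promoters and 52.7% for all, and base composition was not adjusted for. On mm10 the genes lie on chromosome 12 from 25093799 to 25097140 for Id2, on chromosome 4 from 136143497 to 136145755 for Id3 and on chromosome 13 from 48261228 to 48266026 for Id4. By these bounds the printed windows of Id2 and Id3 lie inside the genes, and that of Id4 ends before its gene begins. The start used for each window, here and above, was the first listed for the gene, and it differs from the outer gene end for these Id genes. CAGAC was found in 19 of 38 and in 49.7% of all.

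**Figure D5:**
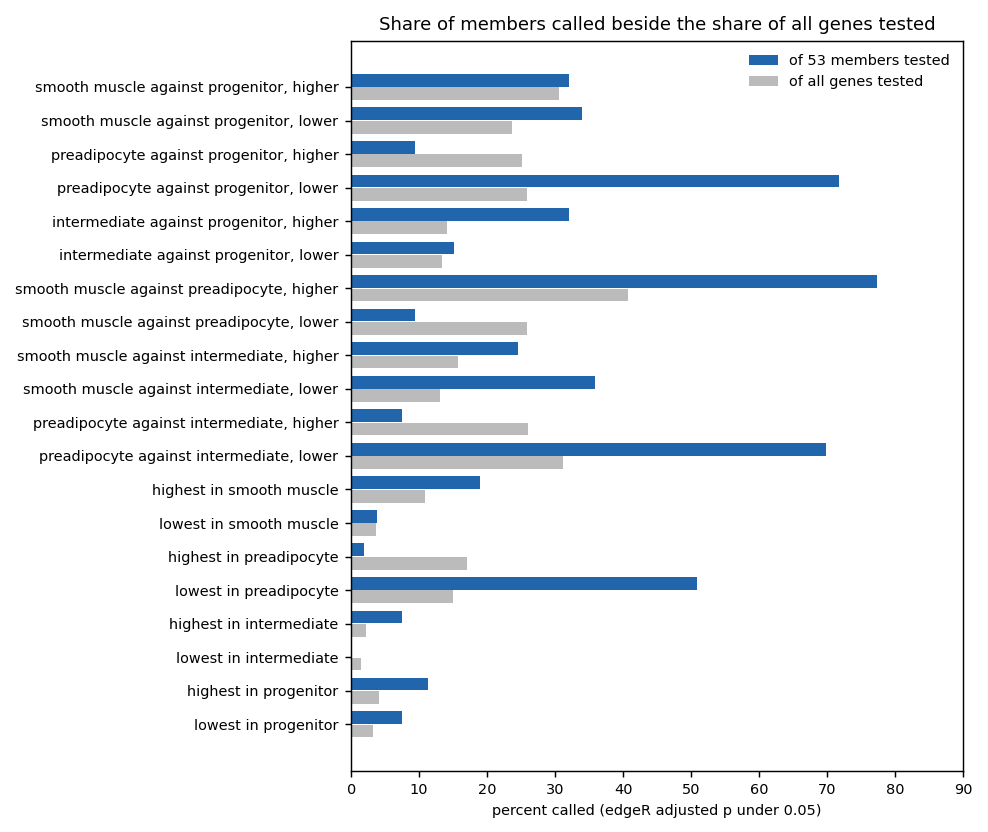
Percent of the 53 tested members and of the 21285 genes tested that were called higher or lower in each comparison, and that were highest or lowest in each population, in percent on an axis from 0. Members exceed all genes for calls lower in preadipocytes, 38 of 53 against 25.9% in the comparison with progenitors, and for the lowest position in preadipocytes.

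In terms of RNA, the populations differed in the ligands they held. Smooth muscle held the most RNA of Tgfb2, Bmp6, Inhba and Inhbb, progenitors of Bmp7, and intermediate cells of Bmp3. Tgfb3 and Gdf10 were shared by intermediate cells and progenitors. For reception, Tgfbr2, Acvrl1 and Acvr2a were highest by mean in progenitors and at levels not called different in intermediate cells (adjusted p = 0.781, 0.758 and 0.526 for intermediate against progenitor). Bmpr1b was higher in smooth muscle and intermediate cells than in preadipocytes and progenitors. At 3.10 and 1.86 CPM per kilobase there, it lay far below Bmpr1a, at 32.6 and 31.7. Preadipocytes had the lowest mean of every receptor and co-receptor except Tgfbr3, Acvr2a, Acvr2b and Bmpr1b. Progenitors also held the most RNA of the secreted modulators Bmper, Chrd, Fst and Nbl1, and smooth muscle held the most of Fstl3. Of 16 further antagonists or modulators outside the member list, 10 were higher and 2 lower in smooth muscle than in progenitors (30.5% and 23.6% of all genes tested). Secreted protein, receptor protein and Smad phosphorylation were not measured, so RNA levels name candidate senders and receivers only.

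Other genes of the pathway showed the same contrast with preadipocytes in part. Of 20 TGF-beta response genes, all tested, preadipocytes were higher than progenitors in 2 and lower in 15 (25.1% and 25.9% of all genes tested), and higher than intermediate cells in 1 and lower in 17 (26.0% and 31.1%). The median log2 fold change over this list was -1.87 for preadipocyte against progenitor and -2.34 against intermediate, beside 0.04 and -0.24 over all genes. Ccn2, a matricellular growth factor, averaged 456 ± 64.2 CPM in smooth muscle, 17.2 ± 2.33 in preadipocyte, 203 ± 9.07 in intermediate and 102 ± 6.23 in progenitor libraries (SD, n = 3 each). Tgfbi, a matrix adhesion protein, averaged 67.3 CPM in smooth muscle, 158 in preadipocyte, 609.8 in intermediate and 875 in progenitor libraries. Col1a2, a chain of type I collagen, averaged 8582 CPM in smooth muscle, 3690.0 in preadipocyte, 67868 in intermediate and 48439 in progenitor libraries. Acta2, the smooth muscle actin and also one of the smooth muscle markers, was at 5335 CPM in smooth muscle, 107 in preadipocyte, 669 in intermediate and 32.9 in progenitor libraries. The 4 named genes thus peaked in 3 different populations. Of 17 genes that release or present latent TGF-beta, preadipocytes were higher than progenitors in 1 and lower in 15 (25.1% and 25.9% of all genes tested), with a median of -1.97 log2 against 0.04 over all genes. Mmp14, a membrane protease, averaged 596 CPM in smooth muscle, 167 in preadipocyte, 1755 in intermediate and 933 in progenitor libraries. Mmp2, a gelatinase, averaged 282 CPM in smooth muscle, 441 in preadipocyte, 709 in intermediate and 1802 in progenitor libraries. Lrrc32, which displays latent TGF-beta on the cell surface, and Itgb3, an integrin subunit, were highest by mean in smooth muscle. Lrrc32 averaged 111 CPM in smooth muscle, 12.1 in preadipocyte, 83.8 in intermediate and 79.4 in progenitor libraries. Itgb3 averaged 146 CPM in smooth muscle, 9.50 in preadipocyte, 43 in intermediate and 84.1 in progenitor libraries.

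Among receptors outside the member list, Acvr1c had its highest mean in preadipocytes. Of 6 tested there, Acvr1c, the type I receptor ALK7 known from fat cells, averaged 3.35 ± 0.968 CPM in smooth muscle, 31.6 ± 8.77 in preadipocyte, 1.90 ± 0.247 in intermediate and 0.837 ± 0.311 in progenitor libraries (SD, n = 3 each), which made it the one gene of the list higher in preadipocytes than in progenitors, against 4 lower (25.1% and 25.9% of all genes tested). Amhr2, the receptor of anti-Müllerian hormone, averaged 9.22 CPM in smooth muscle, 0.662 in preadipocyte, 0.854 in intermediate and 1.41 in progenitor libraries, with its peak in the smooth muscle libraries that also held the mesothelial markers, whose part in it was not tested. Nrp1, a co-receptor for several growth factors, averaged 168 CPM in smooth muscle, 211 in preadipocyte, 531 in intermediate and 653 in progenitor libraries. Rgmb, a BMP co-receptor, averaged 65.3 CPM in smooth muscle, 19.4 in preadipocyte, 39.1 in intermediate and 43 in progenitor libraries. Of 16 further antagonists or modulators, smooth muscle was higher than progenitors in 10 and lower in 2 (30.5% and 23.6% of all genes tested), with a median of 2.15 log2 against 0.09 over all genes. With library size alone the list had 10 higher and 1 lower, while 82.8% of all calls were higher, against 56.4% with TMM. Sost, the sclerostin gene, averaged 40.6 ± 5.73 CPM in smooth muscle, 0.0573 ± 0.0558 in preadipocyte, 0.742 ± 0.656 in intermediate and 0.182 ± 0.316 in progenitor libraries (SD, n = 3 each). Sostdc1, a relative of sclerostin, averaged 20.7 CPM in smooth muscle, 1.20 in preadipocyte, 1.256 in intermediate and 0.0487 in progenitor libraries. Crim1, a membrane protein that binds BMPs, averaged 156 CPM in smooth muscle, 9.29 in preadipocyte, 28.7 in intermediate and 17.8 in progenitor libraries. Kcp, a Chordin-like protein, followed the progenitor pattern instead, at 14.4 CPM in smooth muscle, 7.13 in preadipocyte, 34.7 in intermediate and 67.8 in progenitor libraries.

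Of 9 further family ligands tested, preadipocytes were lower than progenitors in 6 (25.9% of all genes tested), with a median log2 fold change of -1.65 over the list and 0.04 over all genes. Bmp1, which is a protease that cleaves Chordin and procollagens and no BMP in function, averaged 257 ± 14.2 CPM in smooth muscle, 134 ± 32.2 in preadipocyte, 683 ± 27.2 in intermediate and 714 ± 90.6 in progenitor libraries (SD, n = 3 each), while Gdf1 reached 11.6 CPM in progenitors, Inha 5.74 CPM in progenitors and Lefty2 2.10 CPM in smooth muscle, each its highest mean. BMP response genes, 11 tested, were higher in preadipocytes than in progenitors in 2 cases and lower in 6 (25.1% and 25.9% of all genes tested), with a median of -0.77 log2 against 0.04 over all genes. The transcription factor gene Atoh8 averaged 43.4 CPM in smooth muscle, 3.63 in preadipocyte, 16.9 in intermediate and 12 in progenitor libraries. Tbx20, another, averaged 11.6 CPM in smooth muscle, 3.25 in preadipocyte, 1.59 in intermediate and 0.312 in progenitor libraries, and Gata2 31.8 CPM in smooth muscle, 9.81 in preadipocyte, 2.51 in intermediate and 0.421 in progenitor libraries. These 3 were highest by mean in smooth muscle, where Schwann, neuronal and mesothelial markers were high as well and their part was not tested. Stc1, a secreted hormone, averaged 30.1 CPM in smooth muscle, 13.9 in preadipocyte, 52.5 in intermediate and 23.7 in progenitor libraries, highest in intermediate cells. Of 17 other regulators of Smads, preadipocytes were higher than progenitors in 3 and lower in 7 (25.1% and 25.9% of all genes tested), with a median of -0.37 log2 against 0.04 over all genes. With library size alone this split turned to 7 higher and 3 lower. Skil, a Smad repressor induced by TGF-beta, averaged 140.1 CPM in smooth muscle, 66.7 in preadipocyte, 253 in intermediate and 160.4 in progenitor libraries. Zeb2, a Smad-binding repressor, averaged 129 CPM in smooth muscle, 108 in preadipocyte, 262 in intermediate and 162 in progenitor libraries. The ubiquitin ligase gene Wwp2 averaged 181 CPM in smooth muscle, 52.2 in preadipocyte, 40.8 in intermediate and 40.2 in progenitor libraries. Strap, a receptor-associated inhibitor and highest by mean in preadipocytes, averaged 88 CPM in smooth muscle, 219 in preadipocyte, 119 in intermediate and 129 in progenitor libraries.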

How the data were processed

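Per the labels, cells were sorted from aortas with their perivascular fat, and poly(A) RNA was amplified with SMART-Seq v4. The submitters' processing notes name STAR 2.5.2a, DESeq2 1.26.0 and mm10. How reads were assigned to genes, with which annotation and strand setting, is not given in the sources used here. Whole-number counts per gene and library, deposited by the authors with no scaling, were the only table used. Groups came from sample titles.

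In R 4.3.3, counts passed filterByExpr and TMM scaling, and edgeR 4.0.16 fitted them (glmQLFit, glmQLFTest) in 1 model over all 12 libraries. Two-sided p-values received Benjamini-Hochberg adjustment over 21285 genes, with calls at 0.05. A log2 fold change is the first-named population over the second. Its SE was derived from the F statistic, and intervals are 95% normal intervals. The common biological coefficient of variation was 0.2, TMM factors were 0.823 to 1.20, and a count of 0 allows up to 0.162 to 0.273 CPM, which covers counting error only. Exon lengths came from GENCODE M21 on mm10, which matched 36480 of 36512 identifiers. Exons of 18 members overlap another gene, 16 of them on the opposite strand, so reads there are uncertain. Replicate pairs had a chi-square of 3.92 or more per degree of freedom, so no library was a copy of another. The statistics were tested on simulated data in which a small set of genes changed, up or down at random. Those data held no wide shift in composition, so they do not test the choice of scaling.

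Members and gene lists were chosen with earlier results of these data known. A member is given in every library where the F test was called, a called log2 fold change was at least 2 in size and the highest mean was at least 10 CPM, which held for 29 members. Up to 4 genes of each further list were named by the smallest p. The rule for the lowest population, the subtraction of an even background and the printed promoters were chosen after seeing the data. Alternatives were DESeq2-type size factors, library size alone, DESeq2 1.42.0, a filter of 5 CPM in 3 libraries and none at all, fits to 2 populations, a replicate block and leaving out each library.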

Additional observations from a re-analysis of the deposited data

How the results depend on the processing

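The largest fold change of each of the 29 members given in every library kept its direction and its call under every alternative run. Some counts moved by over 1.5 times, 5 of them with library size alone, 4 with no low-count filter and 2 after background subtraction. Others moved when a library was left out. The cause was not tested. Members highest in preadipocytes numbered 2 with DESeq2-type size factors, with library size alone, with DESeq2 and with at least 5 CPM in 3 libraries, 3 with no low-count filter and 0 after subtraction of the even background, against 1. With library size alone, 26 members were higher and 10 lower in smooth muscle than in intermediate cells, 9 were higher in preadipocytes than in intermediate cells, and 16 were highest in smooth muscle. Of all calls over all genes, 89.2% were then higher in smooth muscle than in intermediate cells, against 54.6% with TMM. For preadipocytes against intermediate cells the share was 64.7%, against 45.6%. Shares over all genes are not given for the other counts here, which describe the settings only. With no low-count filter, 9 were lower in smooth muscle than in preadipocytes, 7 were higher in preadipocytes than in intermediate cells, and 5 were highest in smooth muscle. After background subtraction, 3 were lower in smooth muscle than in preadipocytes.

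Leaving out each library in turn gave 50 to 51 members that differed. Smooth muscle had 12 to 20 members higher and 17 to 27 lower than progenitors, 34 to 44 higher and 3 to 8 lower than preadipocytes, and 10 to 14 higher and 16 to 21 lower than intermediate cells. Preadipocytes had 5 to 7 higher and 36 to 41 lower than progenitors, and 3 to 7 higher and 36 to 40 lower than intermediate cells. Intermediate cells had 12 to 20 higher and 7 to 8 lower than progenitors. The highest population was smooth muscle for 6 to 11 members (6 without intermediate replicate 1, 2 or 3 or progenitor replicate 2), preadipocyte for 0 to 3, intermediate for 3 to 8 (8 without preadipocyte replicate 3) and progenitor for 6 to 7, and preadipocyte was the lowest for 23 to 34. The count lower in smooth muscle than in preadipocytes was 3 without smooth muscle replicate 2 or preadipocyte replicate 2, and 8 without preadipocyte replicate 3, any intermediate replicate or progenitor replicate 2. Of the called member comparisons, 4 changed sign under an alternative: with no low-count filter, smooth muscle against preadipocyte for Tgfbr1 (-0.04 log2) and against progenitor for Ltbp1 (-0.01), and with library size alone, smooth muscle against intermediate for Smad5 (0.01) and Id2 (0.06).

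Pairing of libraries by replicate number was not detected, though 3 libraries a population are too few to exclude it. The r of the deviations of same-numbered libraries was -0.163 to 0.207, with 6 of 18 pairs over 0.1. That of other pairs was -0.262 to 0.288, and 4 of 12 libraries correlated best with their own number. Replicates 3 of preadipocyte, intermediate and progenitor libraries correlated at 0.130 to 0.207. With smooth muscle replicate 3 they correlated at -0.0991 to 0.0411. With a replicate block, 38 members were lower and 5 higher in preadipocytes than in progenitors, 12 were higher in smooth muscle than in intermediate cells, 9 were highest in smooth muscle and 27 lowest in preadipocytes. The even background limits the lowest levels. Gdf5 in smooth muscle and intermediate libraries was below that background per kilobase, at 0.477 and 0.736 times it, and Smad9 in smooth muscle was at 1.27 times it.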

Other observations

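Gdf5 had 20, 14 and 4 counts in preadipocyte libraries and was not tested. Its exons overlap Gm15557 on the opposite strand over 40.3% of their length.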
